A study of Macaca mulatta with 449 samples.

Results

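Within the prefrontal cortex of the rhesus macaque, the ventromedial prefrontal cortex (vmPFC) and the medial orbital gyrus were compared with the middle frontal gyrus (MFG) and the inferior frontal gyrus (IFG). The comparison used every library of these 4 sub-regions in the RNA-seq count table, 32 of 408, with 8 libraries per sub-region and 1 from each of 8 animals. Within each animal the counts of the vmPFC and the medial orbital gyrus were summed into a ventromedial-orbital side, and those of the MFG and IFG into a lateral side, so that each side had 8 summed samples. The study profiled pieces of bulk tissue from brain sub-regions of *Macaca mulatta* by Ribo-zero RNA-seq, which removes ribosomal RNA before sequencing and reads all cell types of a piece together. Rhesus 2, 3, 7 and 8 were males aged 10, 10, 4 and 3.8 years. Rhesus 4, 6, 10 and 11 were females aged 3.2, 10, 5 and 9.8 years. Animals up to 5 years were the young group (4 animals) and the older ones the mid-aged group (4 animals), and no sample carried a treatment label. Gene levels are in CPM, that is, counts divided by a TMM-scaled library size and so comparable between libraries of different depth. Each difference is a log2 fold change (log2FC) with its standard error (SE). Differences were tested within animals, with the quasi-likelihood F test of edgeR and animal as a blocking factor, and genes below a Benjamini-Hochberg adjusted p (FDR) of 0.05 over the whole table are referred to as called.

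The ventromedial and orbital cortex lies on the medial wall and the underside of the frontal lobe, is linked with the amygdala, hypothalamus and other limbic structures, and is known for the valuation of outcomes and the control of emotion. The middle and inferior frontal gyri form the lateral convexity, and are known for working memory and the control of attention and action. Fast-spiking interneurons that contain parvalbumin, neuropeptides released beside the classical transmitters, and the subunits of receptors for GABA and glutamate are among the features in which cortical areas are known to differ.

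The 32 libraries held 8132343 to 18614464 counts on genes. Median totals were 10346426 in the vmPFC, 12264112 in the medial orbital gyrus, 10230568 in the MFG and 10132453 in the IFG. The 5 markers of cortical excitatory neurons (*SLC17A7*, *CAMK2A* and others) summed to between 3120 and 4065 CPM in every library of the 4 sub-regions. The medial orbital gyrus library of Rhesus 11 held 1874 CPM of *GHV*, a growth hormone gene, and 640 CPM of *PRL*, the prolactin gene, against at most 8.72 and 18.9 CPM in the other 31 libraries. Counts and tests of the comparisons below were repeated without that library. The MFG library of Rhesus 7 and the vmPFC library of Rhesus 6 did not resemble their own animal. After the mean of each sub-region was subtracted, their mean correlations with the other cortical libraries of the same animal were 0.030 and 0.13, against 0.30 to 0.65 for the other 30 libraries, and both correlated best with Rhesus 4 (0.328 and 0.297). Y-linked genes matched the labelled sex in all 32 libraries. Rhesus 4 and Rhesus 6 are both female, so these genes could not tell those animals apart. The MFG library of Rhesus 7 was male by these genes, and Rhesus 4 is female. The correlations with Rhesus 4 lay at the low end of the 0.30 to 0.65 above. By these correlations alone, the pair is referred to below as the 2 libraries that resembled another animal. Counts of calls, and the named genes that lost their call without the MFG library of Rhesus 7 and the vmPFC library of Rhesus 6, are given below.

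A total of 289 of 15494 genes tested (1.87%) were called between the sides, of which 182 (1.17%) were higher in the ventromedial-orbital side and 107 (0.691%) were lower. The differences were small. Their median absolute log2FC was 0.40, and 23 called genes (0.148% of those tested) passed a 2-fold difference, 19 of them higher and 4 lower. In 248 of the 289 the direction was the same in all 8 animals, and in the other 41 it was the same in 7. For 8 called genes the lowest animal of one side lay above the highest of the other. The counts by animal describe genes chosen by a test within animals on the same values. Their share over all genes tested is not given here. When the animal was not used as a block, 13 genes were called. Without the library with pituitary reads 293 genes were called, 275 of them shared with the 289, and without the 2 libraries that resembled another animal 209 genes, 192 of them shared. The number called was 161 without Rhesus 4, 155 without Rhesus 8 and 173 without Rhesus 11.

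Most calls between sub-regions involved the vmPFC. In a fit of all 32 libraries, 983 of 14947 genes (6.58%) were called between the vmPFC and the MFG and 844 (5.65%) between the vmPFC and the IFG. The medial orbital gyrus differed from the MFG in 33 genes (0.221%) and from the IFG in 4 (0.0268%). Within the ventromedial-orbital side, 712 genes (4.76%) were called between the vmPFC and the medial orbital gyrus, more than between either lateral gyrus and the medial orbital gyrus. Within the lateral side 1 gene (0.00669%) was called between the MFG and the IFG. These comparisons share libraries, and their counts stand side by side only. The medial orbital counts were the least stable. That against the MFG was 19 without the library with pituitary reads and between 13 and 41 with each animal left out (13 without Rhesus 4 or Rhesus 11, 15 without Rhesus 10 and 18 without Rhesus 8), and that against the IFG was 0 without the library with pituitary reads and between 0 and 10 with each animal left out.

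**Figure D1:**
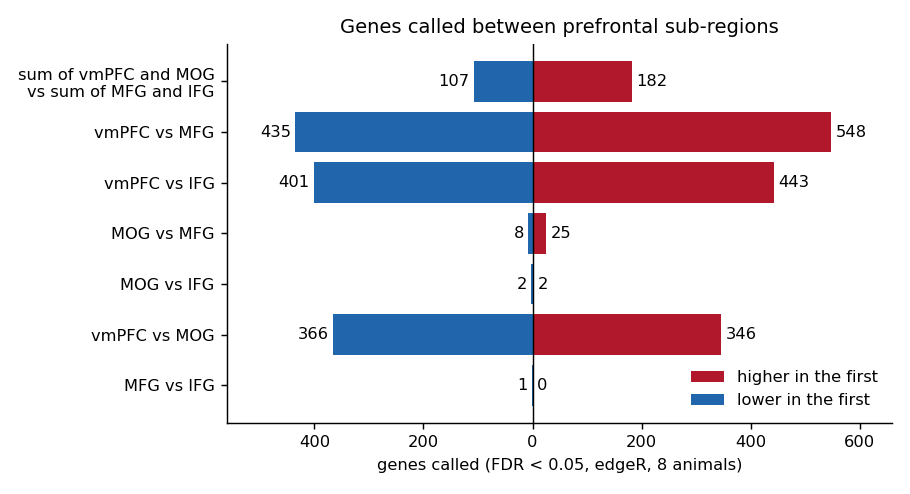
Number of genes called (FDR < 0.05, edgeR, 8 animals) for the summed sides and for each pair of sub-regions (MOG, medial orbital gyrus). Bars to the right count genes higher in the first named and bars to the left genes lower in it; the 3 pairs that contain the vmPFC have between 712 and 983 calls, and the other pairs have at most 33.

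Mean levels of both the vmPFC and the medial orbital gyrus lay beyond those of both lateral gyri, on the same side, in 258 of the 289 genes called between the sides, and the vmPFC was the farther of the pair in 269. For the 182 higher genes the median log2FC was 0.72 for the vmPFC against the MFG and 0.70 against the IFG, and 0.23 and 0.21 for the medial orbital gyrus against the same gyri. For the 107 lower genes these medians were -0.55, -0.48, -0.21 and -0.18. The genes were chosen with these libraries, so the medians describe them and test nothing.

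Among the genes higher in the ventromedial-orbital side, the largest difference was that of *CD36*, a scavenger receptor and fatty acid transporter of the cell surface. Its level was 2.34 CPM in the lowest animal, 4.17 at the median and 7.40 in the highest of the ventromedial-orbital side, and 0.156, 0.851 and 1.61 CPM in the lateral side. The sides did not overlap, and the log2FC was 2.26 ± 0.16 (SE, n = 8 animals, FDR = 6.50e-06). By sub-region, *CD36* averaged 6.49 ± 2.25 CPM (SD, n = 8) in the vmPFC, 2.52 ± 1.57 in the medial orbital gyrus, 0.959 ± 0.718 in the MFG and 0.951 ± 0.610 in the IFG. The vmPFC thus stood above every lateral library, with the medial orbital gyrus between them and overlapping both.

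*LRRC53*, a leucine-rich repeat gene, ranged from 3.36 to 12.2 CPM (median 9.55) in the ventromedial-orbital side and from 2.01 to 6.71 CPM (median 2.96) in the lateral side (log2FC 1.32 ± 0.13, FDR = 1.51e-04). *SERPINB13*, a serine protease inhibitor, had medians of 7.46 and 3.27 CPM (log2FC 1.08 ± 0.11, FDR = 1.51e-04). The ranges of both genes overlapped between the sides, while each was higher in 8 of 8 animals. *PTGER3*, a receptor for prostaglandin E2, had medians of 2.13 and 0.996 CPM (log2FC 1.15 ± 0.14, FDR = 3.25e-04). *ST8SIA2*, which adds polysialic acid to neural cell adhesion molecules, had medians of 1.67 and 0.943 CPM (log2FC 1.14 ± 0.16, FDR = 9.33e-04). The carbonic anhydrase gene *CA12* was higher by 1.11 ± 0.22 (FDR = 0.0146), and it was high in the vmPFC, with a mean of 11.9 ± 6.64 CPM there against 3.93 ± 1.59 in the medial orbital gyrus, 4.36 ± 4.14 in the MFG and 3.28 ± 1.96 in the IFG. The call of *CA12* was lost without the 2 libraries that resembled another animal (log2FC 0.93, FDR = 0.139) and without Rhesus 8.

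Several genes among the largest differences were near the limit of these libraries. *MS4A8*, *MMP3* (a matrix metalloproteinase), *TRHR* (the receptor of thyrotropin-releasing hormone) and *MIXL1* (a homeobox transcription factor) had median levels of 0.789, 0.834, 1.25 and 1.72 CPM in the ventromedial-orbital side, with log2FC between 1.21 and 1.34. *MMP3* ranged from 0.324 to 6.06 CPM across animals and lost its call without either Rhesus 4 or Rhesus 7, and without the 2 libraries that resembled another animal (FDR = 0.0612). *TRHR* lost its call without either Rhesus 8 or Rhesus 11.

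*FSHB*, the beta subunit of follicle-stimulating hormone, was higher by 1.59 ± 0.19 (FDR = 3.43e-04), with a range of 1.79 to 5.61 CPM against 0.272 to 1.84 CPM. Whether its counts include reads of an overlapping or antisense gene cannot be told, since the counting options are not given in the sources used here. It is a gene of the anterior pituitary, and its values were therefore set beside those of the other pituitary genes. In the library with pituitary reads *FSHB* was at 3.20 CPM, inside the 0.831 to 5.06 CPM of the other medial orbital libraries. In Rhesus 6, whose 4 libraries held *GHV* and *PRL* at 0, *FSHB* reached 6.43 CPM in the vmPFC, although that vmPFC library is 1 of the 2 that resembled another animal. Its FDR was 5.33e-04 without the library with pituitary reads. Among cortical sub-regions, mean *FSHB* was 21.2 CPM in the temporal polar gyrus and 11.9 in the insula, against 3.91 in the vmPFC and 2.81 in the medial orbital gyrus. The part of pituitary reads in its difference was not tested. Of 14 pituitary genes listed, 8 had an identifier and 4 were tested between the sides. Of these *FSHB* was the only one called, where 1.17% of all genes were called higher.

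**Figure D2:**
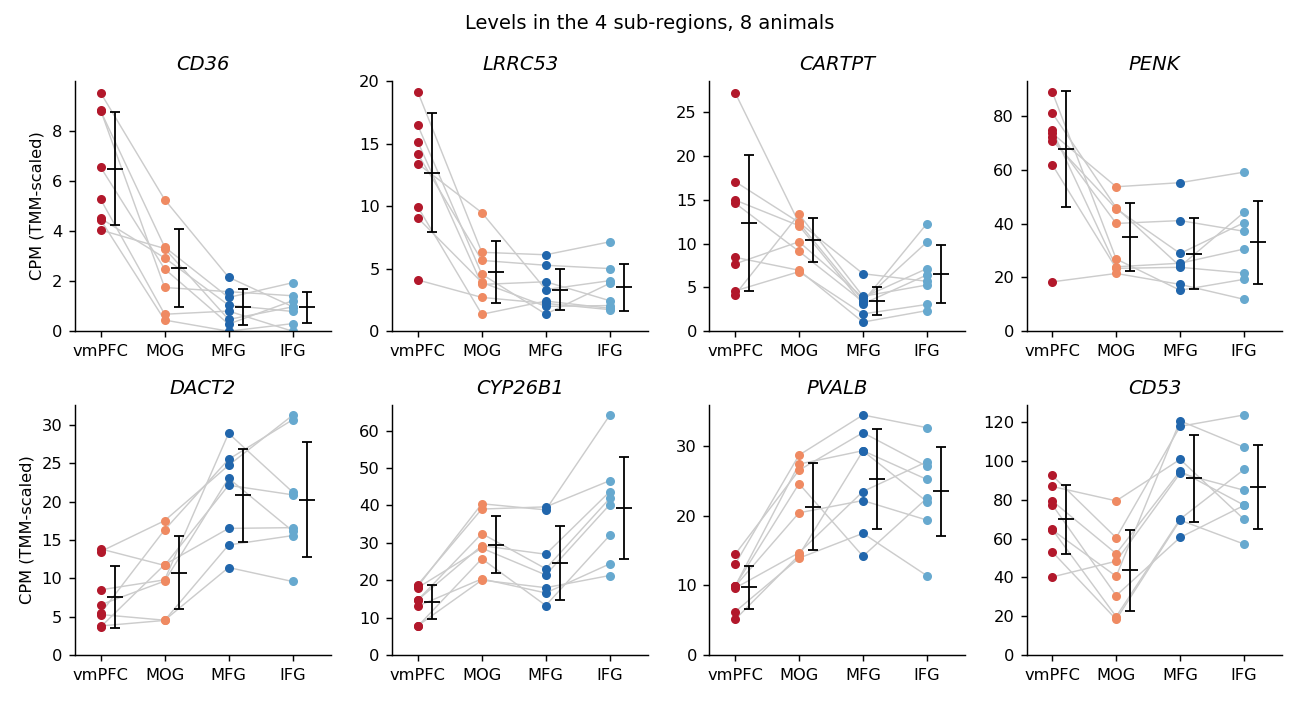
Levels (CPM, TMM-scaled) of 8 genes in the vmPFC, medial orbital gyrus (MOG), MFG and IFG, with 1 point per library, grey lines joining the libraries of an animal, and black bars for mean ± SD (n = 8). *CD36*, *LRRC53* and *PENK* have their highest means in the vmPFC, with 1 vmPFC library of *PENK* low. *CARTPT* and *DACT2* separate both ventromedial-orbital sub-regions from the MFG within each of the 8 animals. *CYP26B1* and *PVALB* are low in the vmPFC, and the mean of *CD53* is lowest in the medial orbital gyrus.

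Among the genes lower in the ventromedial-orbital side, *DACT2*, a regulator of WNT and TGF-beta signalling, had the smallest FDR. It ranged from 4.22 to 15.5 CPM (median 8.62) in that side and from 10.6 to 28.5 CPM (median 20.8) in the lateral side, and was lower in 8 of 8 animals (log2FC -1.19 ± 0.10, FDR = 2.84e-05). *DACT2* was called lower in the medial orbital gyrus against both lateral gyri (log2FC -1.02 ± 0.17 against the MFG and -0.95 ± 0.17 against the IFG), and it was lower in the vmPFC as well (-1.49 and -1.42). *CD53*, a tetraspanin of leukocytes, was likewise called lower in the medial orbital gyrus against both lateral gyri. It averaged 43.7 ± 20.9 CPM in the medial orbital gyrus, 69.9 ± 17.6 in the vmPFC, 91.1 ± 22.5 in the MFG and 86.7 ± 21.4 in the IFG. The difference was -1.11 ± 0.18 (FDR = 0.00319) against the MFG and -1.06 ± 0.18 (FDR = 0.0312) against the IFG, while the vmPFC differed from neither beyond the threshold (-0.36, FDR = 0.282, and -0.31, FDR = 0.359). *CD53* was higher in the vmPFC than in the medial orbital gyrus (0.75 ± 0.18, FDR = 0.0101). The calls of both genes against the IFG were lost without the library with pituitary reads, and without Rhesus 4, 7, 8, 10 or 11.

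*F5*, coagulation factor V, had medians of 1.64 CPM in the ventromedial-orbital side and 4.85 CPM in the lateral side (log2FC -1.22 ± 0.14, FDR = 2.72e-04). *LTB*, which encodes lymphotoxin beta, had medians of 3.32 and 7.11 CPM (-0.97 ± 0.11, FDR = 2.28e-04), and *PMFBP1* of 2.54 and 3.41 CPM (-0.97 ± 0.13, FDR = 7.00e-04). These 3 genes were lower in 8 of 8 animals. *EPN3*, an epsin of the endocytic coat, was lower by a smaller amount (log2FC -0.54 ± 0.08, FDR = 0.00155). *GRHL3*, a grainyhead transcription factor, *SPAG17*, a protein of motile cilia, and *STX19*, a syntaxin, completed the 12 largest lower genes with log2FC of -1.03, -1.01 and -0.65 at medians of at most 2.78 CPM on either side. Their calls were each lost with at least 2 of the 8 animals left out.

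Several genes of fast-firing neurons were lower in the ventromedial-orbital side. The list holds sodium and potassium channel subunits, neurofilaments and presynaptic proteins of neurons with brief action potentials. Like the other gene lists here, it was chosen with earlier results of these data known. Counts of called members, here and for the other lists, therefore describe the lists and do not test them. Of 18 genes listed, 14 had an identifier and were tested, and 6 were lower and 0 higher in the ventromedial-orbital side, where 0.691% of all genes were called lower. The median log2FC of the 14 genes was -0.29, against 0.001 over all genes tested, and 13 of 14 were negative. *KCNS1*, a modulatory potassium channel subunit, had a median of 27.7 CPM in the ventromedial-orbital side and 39.9 CPM in the lateral side (log2FC -0.67 ± 0.09, FDR = 7.46e-04). *PVALB*, the calcium-binding protein parvalbumin, had medians of 16.6 and 25.7 CPM (-0.63 ± 0.10, FDR = 0.00404), and *CPLX1*, a complexin of the release machinery, medians of 307 and 380 CPM (-0.36 ± 0.06, FDR = 0.00295). All 3 were lower in 8 of 8 animals although the ranges of the sides overlapped. *SCN1A* and *KCNC1*, the pore-forming subunits of a sodium and a fast potassium channel, were lower by 0.31 and 0.32 on the log2 scale. Without the library with pituitary reads the count of lower genes was again 6, and without the 2 libraries that resembled another animal it was 4, and 0 passed when the animal was not used as a block.

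By sub-region, the fast-firing genes named above had their lowest means in the vmPFC. *PVALB* ranged from 5.09 to 14.5 CPM in the vmPFC and from 11.4 to 34.5 CPM in the other 3 sub-regions. *SCN1A* averaged 185 ± 26.6 CPM in the vmPFC, 270 ± 67.2 in the medial orbital gyrus, 286 ± 41.9 in the MFG and 279 ± 53.8 in the IFG. Against the MFG, *PVALB* was lower by 1.38 on the log2 scale in the vmPFC (SE 0.14, FDR = 5.10e-07) and differed by -0.25 ± 0.14 in the medial orbital gyrus (FDR = 0.802). For *SCN1A* these values were -0.63 ± 0.08 (FDR = 1.05e-05) and -0.11 ± 0.08 (FDR = 0.91).

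Within the ventromedial-orbital side, 8 of the 14 fast-firing genes were lower in the vmPFC than in the medial orbital gyrus and 0 were higher, where 2.45% of all genes were called lower. The median log2FC of the 14 was -0.52, against 0.00818 over all genes tested. Among the called genes were *PVALB*, *SCN1A*, *KCNC1*, *CPLX1* and the neurofilament genes *NEFL*, *NEFM* and *NEFH*. The neurofilaments had not been called between the summed sides (*NEFH* log2FC -0.27, FDR = 0.219), but were lower in the vmPFC than in the medial orbital gyrus, with *NEFH* at -1.11 ± 0.15 (FDR = 2.90e-05), *NEFM* at -0.80 and *NEFL* at -0.47. *NEFH* reached at most 64.4 CPM in the vmPFC and was at least 69.0 CPM in the medial orbital gyrus, with no overlap. *HAPLN4*, a link protein of perineuronal nets, had the same pattern (log2FC -1.44 in the vmPFC against the medial orbital gyrus, FDR = 1.52e-06), while *BCAN*, a proteoglycan of these nets, was higher in the vmPFC (0.29, FDR = 0.0130) and the other 3 net genes tested were not called.

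Oligodendrocyte markers moved with the vmPFC differences. All 7 oligodendrocyte genes tested (of 10 listed) were lower in the vmPFC than in the medial orbital gyrus, with log2FC from -1.45 (*MBP*, myelin basic protein) to -0.51 (*CNP*, a myelin enzyme) and a median of -1.31. In that comparison 2.45% of all genes were called lower. *ERMN*, a cytoskeletal protein of myelinating oligodendrocytes, ranged from 5.26 to 13.4 CPM in the vmPFC, from 16.3 to 24.4 CPM in the medial orbital gyrus, from 9.38 to 17.8 CPM in the MFG and from 11.5 to 26.2 CPM in the IFG. The vmPFC and the medial orbital gyrus did not overlap for *ERMN* (log2FC -1.40 ± 0.11, FDR = 9.78e-09), and the means of the lateral gyri lay between theirs. *ERMN* and *UGT8*, an enzyme of myelin lipid synthesis, were higher in the medial orbital gyrus than in the MFG (0.69 and 0.56). The summed level of the 7 markers was 543 to 1053 CPM in the vmPFC, 1576 to 2277 in the medial orbital gyrus, 845 to 1845 in the MFG and 1277 to 1924 in the IFG, and none of the 7 was at 0 in any of these sub-regions. Between the summed sides none of the 7 was called, and their median log2FC was 0.06. In bulk tissue, fewer cells of a type and less RNA per cell cannot be told apart. The part of oligodendrocyte RNA in the other differences of the vmPFC was not tested.

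**Figure D3:**
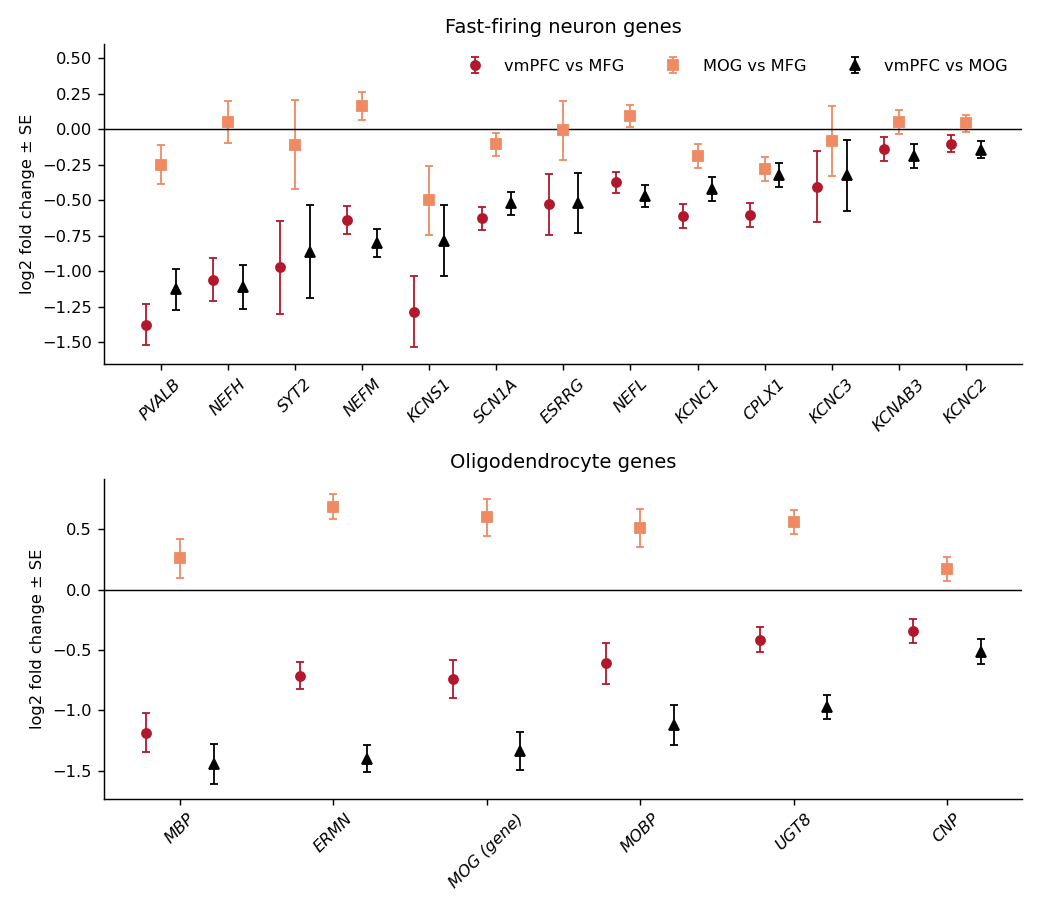
Log2 fold changes with SE (edgeR, n = 8 animals) of 13 of the 14 fast-firing neuron genes and 6 of the 7 oligodendrocyte genes tested (the other 1 of each is not reported here), for the vmPFC against the MFG, the medial orbital gyrus (MOG) against the MFG, and the vmPFC against the medial orbital gyrus. Most fast-firing genes are low in the vmPFC and nearer to 0 in the medial orbital gyrus, whereas the oligodendrocyte genes are low in the vmPFC and above 0 in the medial orbital gyrus.

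Markers of other cells differed less. The 5 pan-neuronal genes summed to 6770 to 8063 CPM in the vmPFC, 8021 to 11180 in the medial orbital gyrus, 6995 to 10383 in the MFG and 6930 to 10688 in the IFG. Of these genes 2, *SNAP25* (log2FC -0.37) and *SYT1* (-0.24), were lower in the vmPFC than in the medial orbital gyrus, where 2.45% of all genes were called lower. Between the summed sides, 2 of 5 microglial genes tested were higher in the ventromedial-orbital side, where 1.17% of all genes were, *P2RY12* by 0.31 ± 0.07 (FDR = 0.0257) and *CSF1R* by 0.25 (FDR = 0.0301), and the microglial sum was 68.3 to 138 CPM in the vmPFC, 70.8 to 120 in the medial orbital gyrus, 63.8 to 111 in the MFG and 62.6 to 113 in the IFG. Of 5 meningeal fibroblast genes, *COL1A1*, a collagen chain, was higher (1.53 ± 0.35, FDR = 0.0361) at levels of 0 to 5.50 CPM in the 32 libraries. The meningeal sum was 40.4 to 65.8 CPM in the vmPFC, 26.7 to 101 CPM in the medial orbital gyrus, 31.5 to 63.0 in the MFG and 25.7 to 58.9 in the IFG. None of the markers tested of astrocytes, oligodendrocyte precursors, endothelial cells, choroid plexus, ependymal cells or blood was called between the sides. The part of these cells in the differences between the sides was not tested.

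Of 21 neuropeptide genes listed, 17 were tested, and 4 were higher in the ventromedial-orbital side (*CARTPT*, *PENK*, *GRP* and *NPY*) and 0 lower, where 1.17% of all genes were called higher. The median log2FC of the 17 was 0.11. *CARTPT*, the precursor of the CART peptides, ranged from 5.88 to 19.2 CPM (median 10.5) in the ventromedial-orbital side and from 1.76 to 7.99 CPM (median 5.27) in the lateral side (log2FC 1.20 ± 0.14, FDR = 2.28e-04). *CARTPT* was higher in both sub-regions against the MFG, by 1.77 in the vmPFC and 1.66 in the medial orbital gyrus (FDR = 4.34e-05 and 0.00317). *PENK*, the precursor of the enkephalins, had medians of 56.5 and 31.3 CPM (0.74 ± 0.13, FDR = 0.00646). By sub-region it was highest in the vmPFC, with a mean of 67.7 ± 21.4 CPM there and means between 28.9 and 35.1 CPM in the other 3 sub-regions (SD 12.6 to 15.4). The vmPFC of Rhesus 2 (18.4 CPM) was the one vmPFC library below 60 CPM.

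*GRP*, gastrin-releasing peptide, had medians of 5.27 and 2.88 CPM (0.81 ± 0.16, FDR = 0.0160) and was likewise higher in the vmPFC than in the medial orbital gyrus (0.99 ± 0.26, FDR = 0.0216). *NPY*, neuropeptide Y of a class of interneurons, had medians of 21.5 and 14.8 CPM (0.45 ± 0.10, FDR = 0.0262), with close means in the vmPFC (21.2 ± 7.04) and the medial orbital gyrus (21.5 ± 5.61), and lost its call when any of 5 animals was left out. Of 20 neuropeptide receptors tested, 1 was called, the neurotensin receptor *NTSR1* (0.82 ± 0.19, FDR = 0.0438) at a median of 1.09 CPM against 0.598 CPM. Of all genes tested, 1.17% were called higher. The *NTSR1* call was lost with 6 of the 8 animals left out in turn, and without the 2 libraries that resembled another animal.

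Among receptors of the main transmitters, *GABRA5* was the 1 called of 12 GABA-A receptor subunits tested, where 1.17% of all genes were called higher. It encodes the alpha-5 subunit, which is found mostly outside synapses. It ranged from 149 to 304 CPM (median 173) in the ventromedial-orbital side and from 89.0 to 189 CPM (median 113) in the lateral side, and was higher in 8 of 8 animals (log2FC 0.65 ± 0.09, FDR = 0.00128). Of 26 glutamate receptor genes, with a median log2FC of 0.10 against 0.001 over all genes tested, 2 were called higher, where 1.17% of all genes were, the AMPA receptor subunit *GRIA1* (0.30 ± 0.04, FDR = 0.00128) and the NMDA receptor subunit *GRIN3A* (0.28 ± 0.06, FDR = 0.0189). *GRIA1* ranged from 332 to 419 CPM in the vmPFC and from 241 to 296 CPM in the MFG, with no overlap. The nicotinic receptor subunit *CHRNA4* was the 1 acetylcholine receptor gene called of 11, where 0.691% of all genes were called lower. It was lower by 0.36 on the log2 scale (FDR = 0.0366), a call that was lost with 7 of the 8 animals left out in turn. None of 11 serotonin, 8 dopamine and adrenergic or 4 steroid hormone receptor genes tested was called between the sides. Between the vmPFC and the medial orbital gyrus, the dopamine receptor gene *DRD1* was higher (0.45, FDR = 7.35e-05), *HTR1A* was higher (0.63, FDR = 0.0403) and *HTR3A*, a serotonin-gated channel, was lower (-1.14, FDR = 0.00108). *DRD1* was also listed as a gene of striatal medium spiny neurons. The sum of that list was 183 to 277 CPM in the vmPFC, highest in Rhesus 11, and 164 to 216 CPM in the medial orbital gyrus. The part of such cells in the *DRD1* difference was not tested.

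Among genes of cortical layers and of cortical patterning, the upper-layer list held the most calls, in a comparison where 1.17% of all genes were called higher and 0.691% lower. Of 6 upper-layer genes, *CARTPT*, *CALB1* (calbindin, 0.37 ± 0.08, FDR = 0.0302) and *LAMP5* (0.27 ± 0.06, FDR = 0.0366) were higher, and of 11 deep-layer genes tested, the transcription factor gene *FOXP2* was lower (-0.46 ± 0.10, FDR = 0.0249). *FOXP2* averaged 11.0 ± 6.68 CPM in the vmPFC and 23.7 to 24.5 CPM in the other 3 sub-regions, and was lower in the vmPFC than in each of them (FDR from 1.83e-04 to 4.84e-04). The calls of *CALB1*, *LAMP5* and *FOXP2* between the sides were lost without the 2 libraries that resembled another animal (FDR = 0.0871, 0.0962 and 0.0797), and that of *LAMP5* also without the library with pituitary reads (FDR = 0.0561). Of 15 areal patterning transcription factors tested, 1 was called. *BHLHE22*, a helix-loop-helix factor of cortical projection neurons, ranged from 11.7 to 26.9 CPM (median 19.2) against 6.50 to 14.5 CPM (median 8.96) and was higher by 0.91 ± 0.12 (FDR = 8.28e-04).

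Axon guidance genes differed in both directions, with 3 higher and 1 lower of 39 tested, where 1.17% and 0.691% of all genes were. *NRP2*, a co-receptor of semaphorins, ranged from 25.1 to 35.1 CPM against 16.6 to 25.2 CPM (0.56 ± 0.07, FDR = 5.63e-04). *EFNB3*, an ephrin, was higher by 0.30 ± 0.04 (FDR = 0.00111), and *PLXNC1*, a plexin receptor, by 0.17 ± 0.04 (FDR = 0.0415). The semaphorin gene *SEMA7A* was lower (-0.52 ± 0.06, FDR = 2.28e-04), with medians of 48.4 and 65.5 CPM. The calls of *EFNB3* and *PLXNC1* were lost without the 2 libraries that resembled another animal (FDR = 0.103 and 0.106), and that of *PLXNC1* also with 7 of the 8 animals left out in turn. The cadherin gene *CDH9* (0.27 ± 0.06, FDR = 0.0203), 1 of 21 cadherins and protocadherins tested, and the immediate early gene *NR4A3* (0.37 ± 0.08, FDR = 0.0328), 1 of 8 tested, were called higher. The call of *NR4A3* was lost with 6 of the 8 animals left out in turn, and that of *CDH9* with 4 and without the 2 libraries that resembled another animal (FDR = 0.142). None of the 5 perineuronal net genes tested was called between the sides.

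*CYP26B1*, the enzyme that degrades retinoic acid, was the 1 gene called of 16 in retinoic acid signalling, where 0.691% of all genes were called lower. It set the sub-regions in an order that the sides did not follow. Its mean was 14.2 ± 4.44 CPM in the vmPFC, 24.7 ± 9.88 in the MFG, 29.5 ± 7.64 in the medial orbital gyrus and 39.3 ± 13.6 in the IFG. The sum of the ventromedial-orbital side was lower (log2FC -0.50 ± 0.06, FDR = 5.25e-04). The vmPFC was lower than each of the others (FDR from 3.33e-09 to 3.78e-05), and the medial orbital gyrus was not distinguished from either lateral gyrus (0.30, FDR = 0.463, and -0.39, FDR = 0.337). *CYP26B1* was also the 1 gene called between the MFG and the IFG, lower in the MFG by 0.69 on the log2 scale (SE 0.11, FDR = 0.00882), a call that was lost without Rhesus 7, 8, 10 or 11.

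Between the vmPFC and the medial orbital gyrus, 346 genes were higher (2.31%) and 366 lower (2.45%) in the vmPFC. With the smallest FDR among the higher genes, *ZIC1*, a zinc finger transcription factor, averaged 12.6 ± 1.83 CPM in the vmPFC and 6.23 ± 1.85 in the medial orbital gyrus (log2FC 1.05 ± 0.11, FDR = 8.70e-07). The lowest vmPFC library (9.38 CPM) lay just above the highest of the medial orbital gyrus (9.31 CPM). *GPD1*, a glycerol-3-phosphate dehydrogenase, was higher by 0.87 ± 0.10, *IGFBP5*, an insulin-like growth factor binding protein, by 0.89 ± 0.11, and *NECAB2*, a neuronal calcium-binding protein, by 0.83 ± 0.11. *NECAB2* ranged from 57.1 to 96.1 CPM in the vmPFC, above all libraries of the medial orbital gyrus (30.6 to 49.3 CPM) and of the lateral gyri (at most 50.8 CPM). Besides *ERMN*, the lower genes with the smallest FDR included *CNDP1*, a dipeptidase of carnosine (-1.74 ± 0.17, FDR = 4.60e-07), and *SPP1*, osteopontin (-0.67 ± 0.07, FDR = 5.80e-07). Without the library with pituitary reads 630 genes were called in this comparison, without the 2 libraries that resembled another animal 988, and without Rhesus 10 381.

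The 4 genes called between the medial orbital gyrus and the IFG were *CD53*, *DACT2*, *MET* and ENSMMUG00000000692, and the last pair was named after its values were seen, because the count was small. *MET*, the receptor of hepatocyte growth factor, averaged 16.9 ± 8.94 CPM in the medial orbital gyrus, 8.41 ± 4.72 in the MFG and 9.11 ± 3.64 in the IFG. It was higher by 1.01 ± 0.15 against the MFG (FDR = 0.00317) and 0.82 ± 0.15 against the IFG (FDR = 0.0352). None of the 4 calls against the IFG held without the library with pituitary reads, or without Rhesus 4, 7, 8, 10 or 11.

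Set among 31 sub-regions of the cerebral cortex, which leave out the entorhinal and perirhinal cortex, the vmPFC held an outer place for most of these genes. Over the 182 genes higher in the ventromedial-orbital side, the vmPFC was among the 5 highest mean levels for 164 genes and the highest for 31, with a median place of 3. The medial orbital gyrus was among the 5 highest for 33 genes, with a median place of 7, and the MFG and IFG had median places of 12 and 11. Over the 107 lower genes, counted from the lowest level, the vmPFC was among the 5 lowest for 77, with a median place of 3, and the medial orbital gyrus for 8, with a median place of 8. These places describe genes that were chosen with the same libraries. *LRRC53*, *PENK*, *NR4A3* and *ZIC1* had their highest mean of the 31 in the vmPFC. *GABRA5*, *GRIA1* and *GRP* had theirs in the anterior cingular gyrus, with the vmPFC at place 2, 4 and 3, and *CD36*, *CARTPT* and *BHLHE22* in the temporal polar gyrus, with the vmPFC at place 4, 5 and 6. The summed fast-firing genes averaged 2036 ± 203 CPM in the temporal polar gyrus and 2179 ± 255 in the vmPFC, the 2 lowest of 31, and 5507 ± 390 in the highest, the inferior postcentral gyrus. The medial orbital gyrus (3087 ± 282), MFG (3094 ± 346) and IFG (3016 ± 259) lay close together within their spread. The summed oligodendrocyte markers were lowest in the same sub-regions, at 772 ± 185 CPM in the vmPFC and 776 ± 195 in the temporal polar gyrus. These markers were highest in the superior precentral gyrus (5841 ± 1388), and averaged 4840 ± 1028 in the inferior postcentral gyrus. Their part in the order of the fast-firing genes was not tested.

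**Figure D4:**
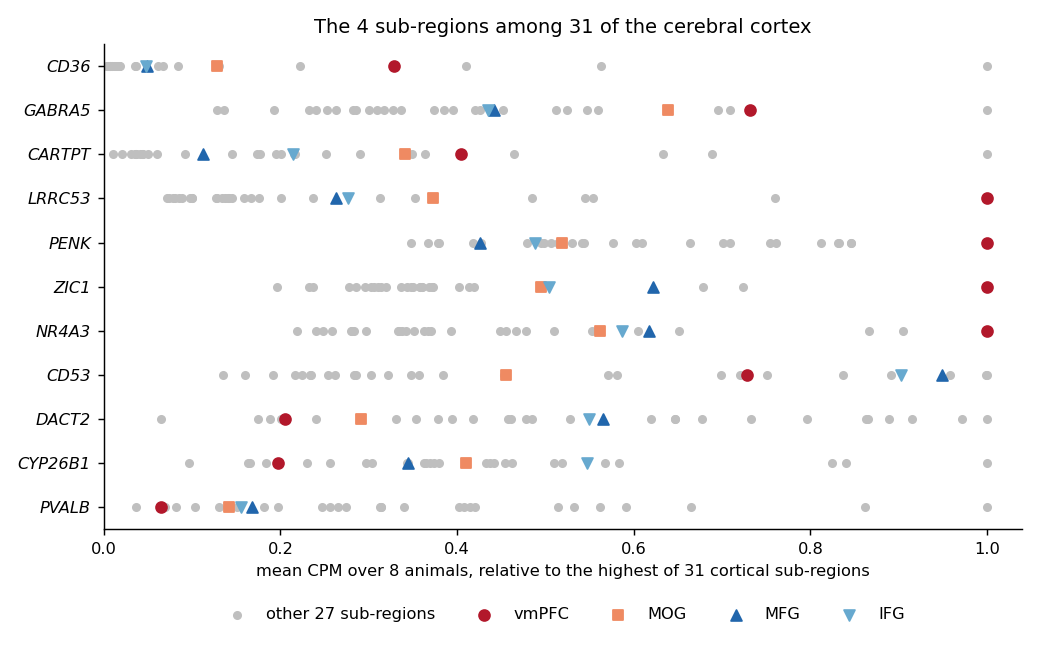
Mean CPM over 8 animals of 11 genes in 31 cortical sub-regions (without the entorhinal and perirhinal cortex), each divided by the highest of the 31. Coloured symbols mark the vmPFC, medial orbital gyrus (MOG), MFG and IFG, and grey points the other 27; the vmPFC is at the upper end for *LRRC53*, *PENK*, *ZIC1* and *NR4A3* and near the lower end for *PVALB*, while the MFG and IFG sit among the grey points.

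The called genes were then read in a second medial-lateral pair of the frontal region, the anterior cingular gyrus against the anterior arcuate sulcus gyrus. These 16 libraries were not part of the comparison above, although they came from the same 8 animals. In this pair 2628 of 14505 genes tested (18.1%) were called, 1425 higher (9.82%) and 1203 lower (8.29%) in the cingular gyrus. Of the 289 genes, 274 were tested there and 272 had the same sign. Among the 169 that were higher in the ventromedial-orbital side, 153 (90.5%) were called higher in the cingular gyrus, and among the 105 lower ones 91 (86.7%) were called lower. No gene was called in the opposite direction. The median log2FC was 1.06 for the higher and -0.80 for the lower genes, against 0.001 over all genes tested. Starting from the calls made without the library with pituitary reads, 277 of 278 genes had the same sign, and from those made without the 2 libraries that resembled another animal, 194 of 196. Genes called between the vmPFC and the medial orbital gyrus, within 1 side, mostly kept their sign here too. This held for 332 of 341 genes higher in the vmPFC and 345 of 361 lower ones. The second pair therefore does not set the contrast of the sides apart from that within 1 side. The share of equal sign over all genes is not given here.

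*CD36* averaged 8.08 ± 3.40 CPM in the anterior cingular gyrus and 0.370 ± 0.394 in the anterior arcuate sulcus gyrus (log2FC 4.46 ± 0.29, FDR = 1.42e-07). *FSHB* (3.83 ± 0.36, FDR = 3.53e-06), *CARTPT* (2.41 ± 0.18, FDR = 4.87e-07) and *GABRA5* (1.22 ± 0.09, FDR = 2.96e-07) were higher in the cingular gyrus, and *PVALB* (-2.44 ± 0.19) and *DACT2* (-2.25 ± 0.19) were lower. For these 6 genes the log2FC of this pair was farther from 0 than that of the summed sides. *PENK* did not follow, with means of 34.3 CPM (17.5 to 51.8) in the cingular and 35.9 CPM (17.4 to 66.0) in the arcuate gyrus (log2FC 0.00 ± 0.16, FDR = 0.995), nor did *CHRNA4* (-0.03, FDR = 0.923). The 2 genes of opposite sign, named after their values were seen, were *MET* (-0.36, FDR = 0.174) and *SMYD1* (-0.61, FDR = 0.281). Of the fast-firing genes 12 of 14 were lower in the cingular gyrus, where 8.29% of all genes were called lower. All 7 oligodendrocyte genes were also lower there (median log2FC -1.78), and their part in this result was not tested.

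**Figure D5:**
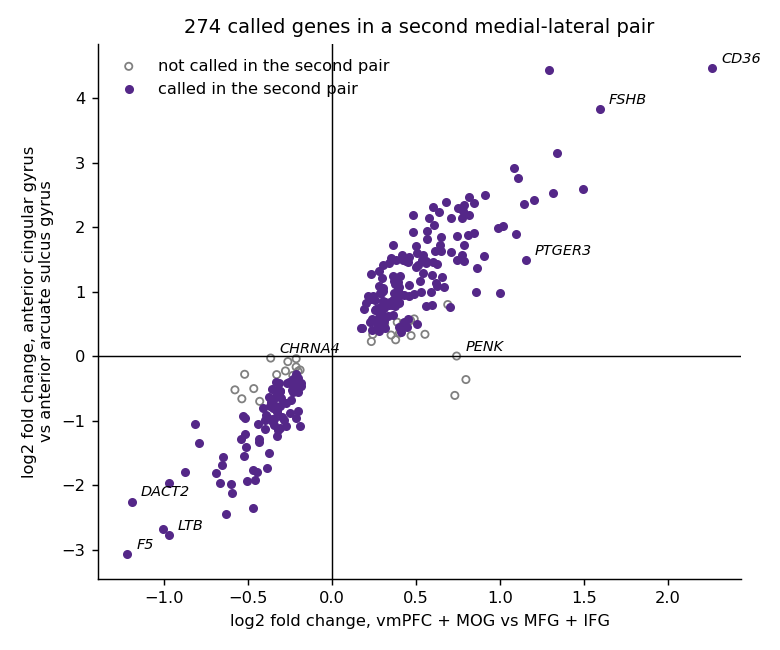
Log2 fold changes of the 274 genes called between the summed sides and tested in both comparisons, for the ventromedial-orbital against the lateral side (x axis) and for the anterior cingular against the anterior arcuate sulcus gyrus (y axis). Filled points were also called in the second pair (FDR < 0.05); 272 points lie in the quadrants of equal sign, and *PENK* and *CHRNA4* lie near 0 on the y axis.

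The differences between the sides were not shown to depend on age stage or sex. With edgeR, 0 of 15494 genes were called for the interaction of side with age stage (smallest FDR = 0.543, 870 genes with an unadjusted p < 0.05) and 0 for that with sex (smallest FDR = 0.873, 719 genes with an unadjusted p < 0.05). DESeq2 called 2 and 1. These were named after their values were seen. The difference of *CALB1* between the sides was larger in mid-aged than in young animals by a log2FC of 0.53 (FDR = 0.0135 with DESeq2 and 0.543 with edgeR), and that of ENSMMUG00000049022 by 0.75 (FDR = 0.0229 and 0.543). The difference of the immediate early gene *FOS* was larger in females than in males by 0.78 (FDR = 0.0264 and 0.873). With 4 animals per stage or sex, interactions of up to 2-fold may have gone undetected. In simulated counts, the test of age stage recovered 29 of 100 interactions of 1.5-fold and 76 of 100 of 2-fold.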

How the data were processed

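Whole-number counts per gene of 408 libraries were deposited without normalization, and the 32 libraries of 4 prefrontal sub-regions were analysed, with 16 others as a second pair and 248 libraries of 31 cortical sub-regions (the entorhinal and perirhinal cortex was left out) for levels by sub-region. Per the labels and the study's methods, the authors used FastQC 0.11.4 and Trim Galore 0.4.4 for read quality, HISAT2 2.0.5 for alignment (assembly Mmul 8.0.1) and HTSeq 0.6.1 for counting on the Ensembl 91 annotation. Whether HTSeq was run with strand, and how it treated overlaps, is not given in the sources used here, which leaves counts of antisense, overlapping or near-identical genes uncertain. A reference table gave symbols to 17572 of the 30807 genes. Of 395 listed genes 326 were matched.

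Counts were summed per animal and side, and differences were tested with edgeR 4.0.16, run under R 4.3.3 with limma 3.58.1 (TMM, filterByExpr, quasi-likelihood F test, animal as block, Benjamini-Hochberg). Sub-regions were tested in 1 fit of 32 libraries. The SE is the absolute log2FC divided by the square root of F. CPM of the sides use the 16 summed samples, and CPM of sub-regions the cortical libraries. The animal number names the same animal in every sub-region, and deviations of the sides from their means correlated within animals (0.51 to 0.78). The tests were first run on simulated data. Figures were drawn with Python 3.11.15 and matplotlib 3.10.9.

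Named genes were, per direction between the sides, the 12 with a symbol, at least 1 CPM in the higher side, FDR < 0.05 with and without the library with pituitary reads, the same sign in 8 animals and the largest absolute log2FC; up to 4 called genes per functional list; and the 4 of smallest FDR per direction between sub-regions of a side. Genes outside this rule are list members or are marked in the text. Members and lists were chosen with earlier results of these data known. DESeq2 1.42.0, its size factors, other filters, no block, equal weights of sub-regions and omitted libraries or animals were tried as alternatives; the omission of the 2 libraries that resembled another animal was chosen after seeing the data. ATAC-seq libraries and the transcript assembly were not used here, and some genes that the rule names are not reported here.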

Additional observations from a re-analysis of the deposited data

Results flagged for a closer look

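Among 172 groups of 8 values (the per-animal log2 ratios of the sides for the named genes, and the summed levels of the gene lists in each sub-region), 8 had 1 sample far from the others by Dixon's 95% criterion, which chance gives in about 1 of 20 groups. Of the genes, *PENK* had a log2 ratio of the sides of 1.81 in Rhesus 11 against 0.14 to 0.88 in the other animals, and *GRP* of 2.13 in Rhesus 6 against 0.44 to 1.18. Both genes were called with every animal left out in turn. The ventromedial-orbital side of Rhesus 6 includes its vmPFC library, 1 of the 2 that did not resemble their own animal. Of the lists, the anterior pituitary genes summed to 2658 CPM in the medial orbital gyrus of Rhesus 11 against 4.32 to 24.9 CPM in the other animals, and blood genes in the same library to 10.4 CPM against 4.03 to 6.34 CPM. Astrocyte genes summed to 2600 CPM in the MFG of Rhesus 7, which was 1 of the 2 libraries that did not resemble their own animal, against 3393 to 3805 CPM. Pan-neuronal genes summed to 6995 CPM in the MFG of Rhesus 6 against 8628 to 10383 CPM. In the vmPFC, microglial genes summed to 68.3 CPM in Rhesus 2 against 105 to 138 CPM, and striatal medium spiny neuron genes to 277 CPM in Rhesus 11 against 183 to 218 CPM.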

How the results depend on the processing

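The counts of genes called moved with several choices. Between the summed sides, 585 genes were called with no filter on low counts, 522 with equal weight for the 4 sub-regions, and 23 when a 2-fold difference was also required, against 289. DESeq2 (412), its size factors (282) and the detection rule of the study (313) stayed within 1.5 times. With no replicate block for the animal the counts were 13 for the sides, 271 for the vmPFC against the MFG, 219 against the IFG, 0 and 0 for the medial orbital gyrus against the MFG and IFG, 169 for the vmPFC against the medial orbital gyrus, 0 for the MFG against the IFG, and 1455 against 2628 for the second pair. For the medial orbital gyrus against the MFG (33), DESeq2 called 82 genes, the fit without the library with pituitary reads 19 and that without the 2 libraries that resembled another animal 60. Against the IFG (4), DESeq2 called 19, the detection rule of the study 7 and the fit without the library with pituitary reads 0. Between the MFG and the IFG (1), DESeq2 called 3 and the study's detection rule 2. For age stage and sex (0 and 0) DESeq2 called 2 and 1.

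When single animals were omitted, the counts ranged from 155 to 334 for the sides, 596 to 1093 for the vmPFC against the MFG (lowest without Rhesus 11), 536 to 980 against the IFG (lowest without Rhesus 10), 13 to 41 and 0 to 10 for the medial orbital gyrus against the MFG and IFG, 381 to 731 for the vmPFC against the medial orbital gyrus, 0 to 1 for the MFG against the IFG, and 1902 to 3254 for the second pair. They ranged from 0 to 2 for age stage (*PRL* and *GHV*, without Rhesus 3) and from 0 to 3 for sex (*PRL*, *GHV* and *FOS*, without Rhesus 4). *PRL* and *GHV* are the hormone genes of the 1 library of Rhesus 11.

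Of the 44 genes named for the sides, none changed direction under any alternative. With the animal not used as a block 3 were called (*CD36*, *PTGER3* and *NRP2*). DESeq2 lost *NTSR1*, the omission of the library with pituitary reads lost *LAMP5*, and that of the 2 libraries that resembled another animal lost 9 (*MMP3*, *CA12*, *CALB1*, *LAMP5*, *FOXP2*, *NTSR1*, *CDH9*, *EFNB3* and *PLXNC1*). With each animal left out, 28 were called in all 8 fits. The other 16 lost the call in 7 (*CHRNA4*, *PLXNC1*), 6 (*LAMP5*, *NR4A3*, *NTSR1*), 5 (*FOXP2*, *NPY*, *SPAG17*), 4 (*CDH9*, *GRHL3*), 3 (*CALB1*, *GRIN3A*), 2 (*MMP3*, *STX19*, *TRHR*) or 1 (*CA12*) of them. The causes were not tested. At totals of 8132343 to 18614464 counts, genes near 1 CPM rest on few counts per library, and changes in them were detectable only where large.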
